A study of Mus musculus with 6 samples.

Results

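The genes described here encode 10 enzymes that make amino acids or pass on the one-carbon units derived from them: Phgdh, Psat1, Psph, Shmt2, Mthfd2, Asns, Got1, Aldh18a1, Pycr1 and Cth. They were taken by gene symbol from RNA sequencing tables of 22989 rows, and all 10 were found, each as a single row with 1 FPKM or more in every library. FPKM is the number of fragments scaled to transcript length and to library size, a level per length that allows genes to be compared within a library. The cells were C2C12 myoblasts, an established mouse muscle precursor line (strain C3H in the labels), grown in DMEM with fetal bovine serum. Polyadenylated RNA was profiled in 3 libraries. The starved library came from cells given the siRNA called siNS and then moved to Hank's balanced salt solution during 4 h, a medium that supplies glucose and salts but no amino acids or serum. The Foxk1 knockdown library came from non-starved cells given siFoxk1, an siRNA against the forkhead transcription factor Foxk1. The control library came from non-starved cells given siNS, so that all 3 received an siRNA. The design text sets starvation and Foxk1 depletion each against the non-starved control. ChIP regions of Foxk1 and Sin3A from the same line were not used here.

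Mammalian cells make serine from a glycolytic intermediate by the steps of Phgdh, Psat1 and Psph, and Shmt2 and Mthfd2 then move a carbon of serine into the mitochondrial folate pool. Aldh18a1 and Pycr1 make proline from glutamate, Asns makes asparagine from aspartate, Got1 interconverts aspartate and glutamate in the cytosol, and Cth releases cysteine from cystathionine. Several of these genes are known targets of ATF4, the transcription factor whose translation increases when amino acids run short. ATF4 binds with C/EBP partners to a composite site called the C/EBP-ATF response element (CARE), first studied in the Asns promoter.

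A single library stood for each condition, which leaves replicate spread unmeasured and every gene untested. The only error is the 95% interval that the authors gave with each FPKM, and 2 libraries are called apart for a gene where these intervals do not overlap. This compares the libraries, not the conditions. Where limits follow a ratio of FPKM, they are the lowest and highest ratio that the 2 intervals allow. Some ratios are given without limits. The half-width of the interval, which need not be centred on the value, was 14.9% to 24.9% of the value for the 10 enzymes, and its median over rows with at least 5 FPKM was 19.5% for the starved, 19.3% for the knockdown and 17.7% for the control library. Foxk1 itself had 16.1 FPKM (13.3 to 18.9) with starvation, 5.15 FPKM (4.29 to 6.02) with knockdown and 9.09 FPKM (7.76 to 10.4) in the control, a knockdown ratio of 0.567, so its mRNA was lower but still present. All 8 myoblast markers listed reached 1 FPKM in every library, led by Des, and summed to 736, 936 and 865 FPKM in the starved, knockdown and control libraries. Of these 8, the muscle regulators Myod1 and Myog were lower apart after starvation, at 0.152 and 0.424 times the control, and Myf5 was higher apart at 1.76 times. With knockdown Myog was higher apart at 3.20 times the control and the other 7 overlapped it. The part of these muscle genes' differences in the enzyme levels was not tested. The endothelial markers summed to 0.390 FPKM or less in each library. Of the macrophage markers only Cd68 reached 1 FPKM, and Emr1 was listed at 0 throughout. Of the adipocyte markers only Pparg reached 1 FPKM, and Plin1 and Lep were listed at 0 throughout. The osteoblast markers summed to 22.5, 33.0 and 24.2 FPKM in the starved, knockdown and control libraries, nearly all of it Runx2 and Dmp1, and Ibsp was listed at 0 throughout. Runx2 overlapped the control in both comparisons, and Dmp1 was 0.144 times the control after starvation and 2.01 times with knockdown, apart in both.

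Promoter windows from RefSeq (build GRCm38.p6), from 250 bases before to 50 bases after the annotated start, were available for 9 of the 10 genes, with more than 1 window for Psat1. The CARE core, searched as TGATGNAA on both strands, occurred in Asns, Pycr1 and Got1, that is in 3 of these 9 genes, and in 4.51% of all 27025 genes with a window. Of the 9 genes with a window, 6 were higher apart in the starved library, 3 with the core and 3 without it (Mthfd2, Aldh18a1 and Psph). The windows of these genes and, for comparison, that of Phgdh, the gene with the lowest ratio in the knockdown library, are shown in the direction of the gene, with the CARE core in capitals. The window of Asns lies at chr6:7693160-7693459, that of Pycr1 at chr11:120643699-120643998, that of Got1 at chr19:43524556-43524855 and that of Phgdh at chr3:98339920-98340219, all on the minus strand.
Asns: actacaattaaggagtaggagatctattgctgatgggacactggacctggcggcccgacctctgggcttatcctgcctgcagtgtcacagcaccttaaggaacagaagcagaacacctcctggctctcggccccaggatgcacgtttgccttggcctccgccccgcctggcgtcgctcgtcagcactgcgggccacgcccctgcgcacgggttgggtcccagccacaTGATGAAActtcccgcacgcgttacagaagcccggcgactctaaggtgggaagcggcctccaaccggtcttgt
Pycr1: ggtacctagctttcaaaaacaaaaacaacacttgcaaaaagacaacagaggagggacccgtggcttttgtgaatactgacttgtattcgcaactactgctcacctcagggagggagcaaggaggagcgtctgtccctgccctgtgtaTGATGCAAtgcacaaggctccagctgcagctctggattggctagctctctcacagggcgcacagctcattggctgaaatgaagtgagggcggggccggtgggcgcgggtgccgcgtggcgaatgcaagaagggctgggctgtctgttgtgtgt
Got1: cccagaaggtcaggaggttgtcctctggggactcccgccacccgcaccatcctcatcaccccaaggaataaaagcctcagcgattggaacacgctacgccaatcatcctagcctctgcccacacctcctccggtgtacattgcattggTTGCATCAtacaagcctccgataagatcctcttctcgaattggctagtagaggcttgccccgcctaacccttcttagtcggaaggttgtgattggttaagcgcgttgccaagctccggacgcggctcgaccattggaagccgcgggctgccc
Phgdh: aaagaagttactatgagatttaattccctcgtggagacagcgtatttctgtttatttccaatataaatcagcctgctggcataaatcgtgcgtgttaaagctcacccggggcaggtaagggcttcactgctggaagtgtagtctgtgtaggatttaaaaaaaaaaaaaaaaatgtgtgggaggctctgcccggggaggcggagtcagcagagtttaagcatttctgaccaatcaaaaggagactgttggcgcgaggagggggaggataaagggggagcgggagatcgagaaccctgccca
In Asns the match TGATGAAA began 23 bases before the start. In Pycr1 it was TGATGCAA, 103 bases before the start, and in Got1 the same letters lay on the opposite strand from 102 bases before the start, so that the capitals read TTGCATCA. The forkhead core TGTTTAC (in 4.05% of all genes with a window), the cAMP response element TGACGTCA (2.03%) and TGACGCAA (0.562%) were in none of the 9 genes, and the E-box CACGTG (8.09%) was in Aldh18a1 alone. Each site was searched only as the letters given, so other forms of it were not counted, and a missing match does not show that a site is absent. A match describes the letters of these windows and shows no binding.

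After starvation 7 of the 10 enzymes had a higher level with intervals apart (Asns, Mthfd2, Got1, Aldh18a1, Pycr1, Cth and Psph) and none a lower one. Over all 11396 rows with 1 FPKM or more in either library, 12.2% were higher apart and 10.9% lower apart. The ratios of the 10 enzymes ran from 1.23 for Phgdh to 2.80 for Cth, with a median log2 fold change of 0.84 on the log2(FPKM + 1) scale, against a median of -0.01 over all rows. The FPKM of the 10 genes summed to 953 in the starved library and 614 in the control library. In bulk RNA a change in the make-up of the cells and a change of RNA per cell cannot be told apart. The genes were chosen with earlier results of these libraries known, so the counts describe them and do not test them.

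In the knockdown library the levels of 3 of the 10 enzymes were lower apart and 1 was higher apart. Over all 11357 rows expressed in either library, 7.13% were lower apart and 8.89% higher apart. The ratios ran from 0.536 for Phgdh to 1.57 for Pycr1, and the median log2 fold change was -0.25, against 0.02 over all rows. The FPKM of the 10 genes summed to 416 in the knockdown library and 614 in the control library. The enzymes lower in the knockdown library (Phgdh, Psat1 and Shmt2) were the same 3 whose intervals overlapped in the starved comparison. Both comparisons use the same control library, so its error enters both.

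**Figure D1:**
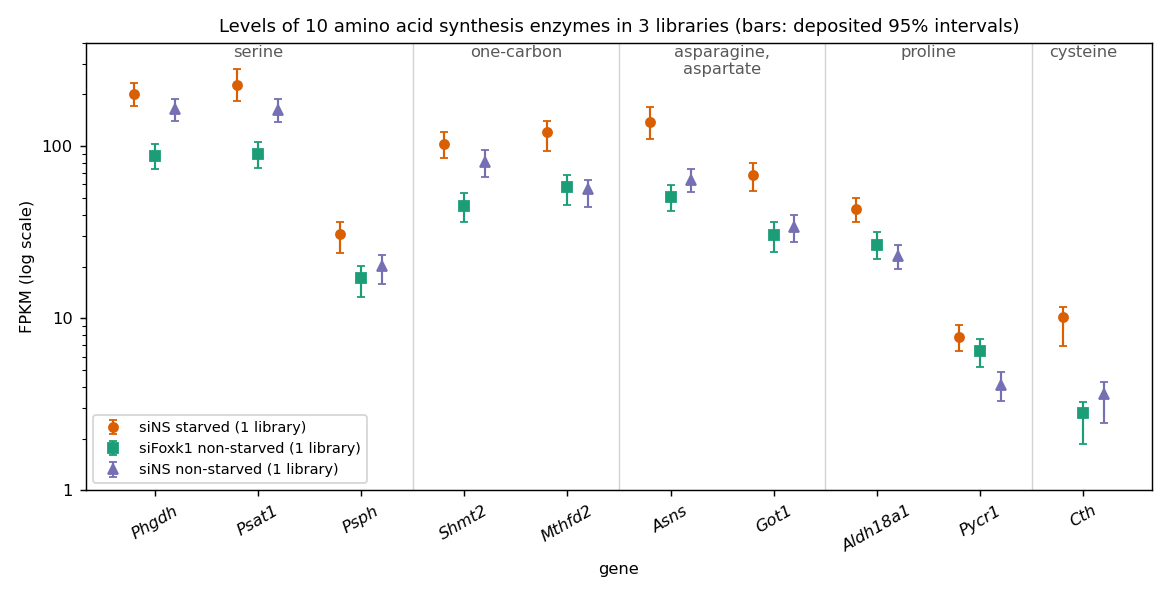
FPKM of the 10 enzymes (log scale, genes grouped by pathway) in the siNS starved, siFoxk1 non-starved and siNS non-starved libraries, 1 library each; bars are the deposited 95% intervals. The starved library is the highest for every gene, and the knockdown library is below the control library for 7 genes and above it for 3, with intervals apart for Phgdh, Psat1, Shmt2 (below) and Pycr1 (above).

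The first enzymes of serine synthesis were the most abundant of the set in all 3 libraries. Phgdh, the dehydrogenase that opens the pathway, had 202 FPKM (171 to 234) in the starved library, 88.1 FPKM (73.6 to 103) in the knockdown library and 164 FPKM (139.9 to 189) in the control library. Its intervals overlapped after starvation, with a ratio of 1.23 (0.904 to 1.67), and were apart in the knockdown library, with a ratio of 0.536 (0.390 to 0.733). Psat1, the aminotransferase of the next step, had 228 FPKM (183 to 281) in the starved library, 90.2 FPKM (75.2 to 105) in the knockdown library and 164 FPKM (138 to 189) in the control library. The pattern was like that of Phgdh, with a ratio of 1.40 (0.968 to 2.03), overlapping, in the starved library and 0.552 (0.399 to 0.762), apart, in the knockdown library. Scaling every library to the same summed FPKM put the starved interval of Psat1 just above that of the control. The ratio of Phgdh to Psat1 stayed close to 1 throughout, at 0.886, 0.976 and 1.01 in the starved, knockdown and control libraries. Both genes stood at percentile 91.2 or above among expressed rows of each library.

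Psph, the phosphatase that releases serine, was far lower in all 3 libraries. It had 30.8 FPKM (24.1 to 36.4) in the starved library, 17.2 FPKM (13.2 to 20.2) in the knockdown library and 20.3 FPKM (15.8 to 23.3) in the control library. The starved and control intervals were narrowly apart, with a ratio of 1.52 (1.04 to 2.30), and the knockdown interval overlapped that of the control, with a ratio of 0.850 (0.569 to 1.28). Multiplying the half-widths of the intervals by 1.5 made the starved and control intervals of Psph overlap.

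The mitochondrial one-carbon enzymes act one after the other; whether their responses differed was not tested. Shmt2, the hydroxymethyltransferase that splits serine into glycine and a one-carbon unit, had 103 FPKM (85.5 to 121) in the starved library, 45.1 FPKM (36.5 to 53.8) in the knockdown library and 80.8 FPKM (66.4 to 95.4) in the control library. Its intervals overlapped after starvation, with a ratio of 1.28 (0.895 to 1.83), and were apart in the knockdown library at 0.557 (0.382 to 0.810). Mthfd2, the dehydrogenase that oxidises the folate-bound unit, had 121 FPKM (93.7 to 139.6) in the starved library, 58.4 FPKM (45.4 to 67.8) in the knockdown library and 56.6 FPKM (44.6 to 64.1) in the control library. Mthfd2 was 2.13 times the control (1.46 to 3.13) after starvation, with intervals apart, and 1.03 times (0.709 to 1.52) in the knockdown library, with intervals overlapping. The ratio of Mthfd2 to Shmt2 was 1.17 (0.773 to 1.63) in the starved library, 1.30 (0.845 to 1.86) in the knockdown library and 0.6999 (0.468 to 0.966) in the control library. The limits of this ratio overlapped between the libraries. Within a library the intervals of the 2 genes were apart in the control, with Shmt2 the higher, and overlapped in the other libraries. This pair was chosen after its values were seen.

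Asns and Got1 showed the same pattern as Mthfd2 in the starved library. Asns had 139 FPKM (109.8 to 169) in the starved library, 50.7 FPKM (42.1 to 59.2) in the knockdown library and 64.0 FPKM (54.1 to 73.8) in the control library. The starved level was 2.17 times the control (1.49 to 3.13), with intervals apart, and the knockdown level 0.792 times (0.571 to 1.09), with intervals overlapping. Got1 had 67.8 FPKM (54.8 to 79.4) in the starved library, 30.4 FPKM (24.3 to 36.4) in the knockdown library and 34.0 FPKM (27.6 to 39.9) in the control library. Its ratio was 2.00 (1.38 to 2.88) after starvation and 0.895 (0.611 to 1.32) after knockdown, apart in the first comparison and overlapping in the second.

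The proline enzymes were both higher apart in the starved library. Aldh18a1, the bifunctional synthase that commits glutamate to proline and ornithine, had 43.1 FPKM (36.2 to 49.9) in the starved library, 26.8 FPKM (22.0 to 31.7) in the knockdown library and 23.0 FPKM (19.3 to 26.7) in the control library. The ratios were 1.87 (1.36 to 2.59) after starvation, apart, and 1.17 (0.823 to 1.64) in the knockdown library, with intervals overlapping. Pycr1, the mitochondrial reductase of the last step, had 7.82 FPKM (6.44 to 9.19) in the starved library, 6.43 FPKM (5.24 to 7.62) in the knockdown library and 4.08 FPKM (3.31 to 4.86) in the control library. Pycr1 alone of the 10 was apart and higher in both comparisons, at 1.91 times (1.33 to 2.78) and 1.57 times (1.08 to 2.30) the control. With half-widths multiplied by 1.5 its knockdown and control intervals overlapped.

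Cth, the lyase that yields cysteine, was the lowest of the set in the knockdown library, and in the control library its interval overlapped that of Pycr1. Its ratio after starvation was the largest by plain FPKM, with limits that overlap those of other enzymes, and with a pseudocount of 5 its log2 fold change of 0.81 was below the 1.06 of Asns, 1.03 of Mthfd2 and 0.90 of Got1. It had 10.1 FPKM (6.89 to 11.6) in the starved library, 2.81 FPKM (1.85 to 3.25) in the knockdown library and 3.62 FPKM (2.47 to 4.24) in the control library. The starved ratio was 2.80 (1.63 to 4.71), with intervals apart, and the knockdown ratio 0.777 (0.436 to 1.31), with intervals overlapping. Cbs, the enzyme that makes cystathionine for Cth, was below 1 FPKM in the starved (0.370 FPKM) and control (0.469 FPKM) libraries. Its knockdown level of 1.47 FPKM (1.01 to 1.93) was apart from the control.

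**Figure D2:**
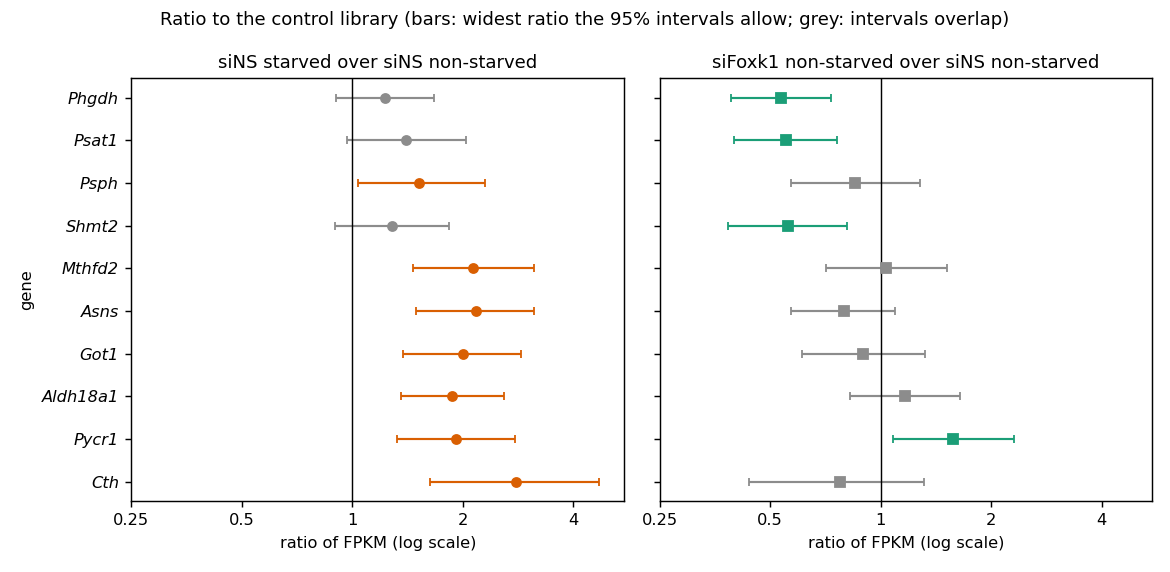
Ratio of FPKM to the siNS non-starved library (log scale) for each enzyme in the siNS starved library (left) and the siFoxk1 non-starved library (right); bars give the widest ratio the 95% intervals allow, and grey marks overlapping intervals. Cth has the highest starved point, 2.80, with limits that overlap those of other enzymes, and the knockdown ratios of Phgdh, Psat1 and Shmt2 lie together between 0.536 and 0.557.

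The order of levels was similar in the 3 libraries. Psat1 and Phgdh were highest and could not be ranked against each other, their intervals overlapping in each library. Asns, Mthfd2 and Shmt2 followed, and neighbours among these 3 overlapped in every library. Got1, Aldh18a1 and Psph came next, and Cth and Pycr1 were lowest. Between Cth and Pycr1 the intervals overlapped in the starved and control libraries, whereas in the knockdown library Pycr1 was above Cth with intervals apart. Phgdh and Psat1 made up the largest parts of the summed FPKM, with shares of 21.2% and 23.9% in the starved library, 21.2% and 21.7% in the knockdown library and 26.8% and 26.6% in the control library.

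Paralogs that catalyse a related reaction, often in another compartment, were listed for 4 of the 10 enzymes (Shmt2, Mthfd2, Pycr1 and Got1). Of those described here none was higher apart after starvation. Reads from similar stretches of paralogs may be shared between rows, and how the authors assigned them is not given in the sources used here. Shmt1, the cytosolic counterpart of Shmt2, had 10.2 FPKM (5.99 to 14.3) in the starved library, 8.76 FPKM (5.26 to 12.3) in the knockdown library and 12.0 FPKM (8.19 to 15.8) in the control library, with all intervals overlapping. Mthfd2l, the close relative of Mthfd2, had 5.54, 3.88 and 5.38 FPKM in the starved, knockdown and control libraries, and overlapped the control in both comparisons. Mthfd1, the trifunctional cytosolic enzyme, was lower apart in both comparisons, with 20.1 FPKM (16.9 to 23.4) in the starved library, 19.1 FPKM (16.1 to 22.1) in the knockdown library and 28.9 FPKM (24.8 to 32.9) in the control library. Mthfd1l, the mitochondrial formate-producing enzyme, had 32.7 FPKM (27.5 to 38.0) in the starved library, 20.2 FPKM (16.6 to 23.7) in the knockdown library and 32.1 FPKM (27.0 to 37.2) in the control library, and was lower apart in the knockdown library. The ratio of Mthfd2 to Mthfd1 was therefore 6.003 (4.01 to 8.28) in the starved library, 3.06 (2.05 to 4.22) in the knockdown library and 1.96 (1.36 to 2.59) in the control library.

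Pycr1 was less abundant than Pycrl, the cytosolic form, in every library. Pycrl had 27.2 FPKM (21.5 to 32.6) in the starved library, 25.3 FPKM (19.6 to 29.8) in the knockdown library and 29.8 FPKM (23.4 to 34.1) in the control library, and overlapped the control in both comparisons. The ratio of Pycr1 to Pycrl was 0.288 (0.198 to 0.428) in the starved library, 0.254 (0.176 to 0.389) in the knockdown library and 0.137 (0.0969 to 0.208) in the control library. Got2, the mitochondrial counterpart of Got1, was more abundant than Got1 in every library, with 155 FPKM (125 to 181) in the starved library, 113 FPKM (91.2 to 135) in the knockdown library and 134 FPKM (109.8 to 157) in the control library, and its intervals overlapped the control in both comparisons. Got1l1 was at most 0.0167 FPKM.

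**Figure D3:**
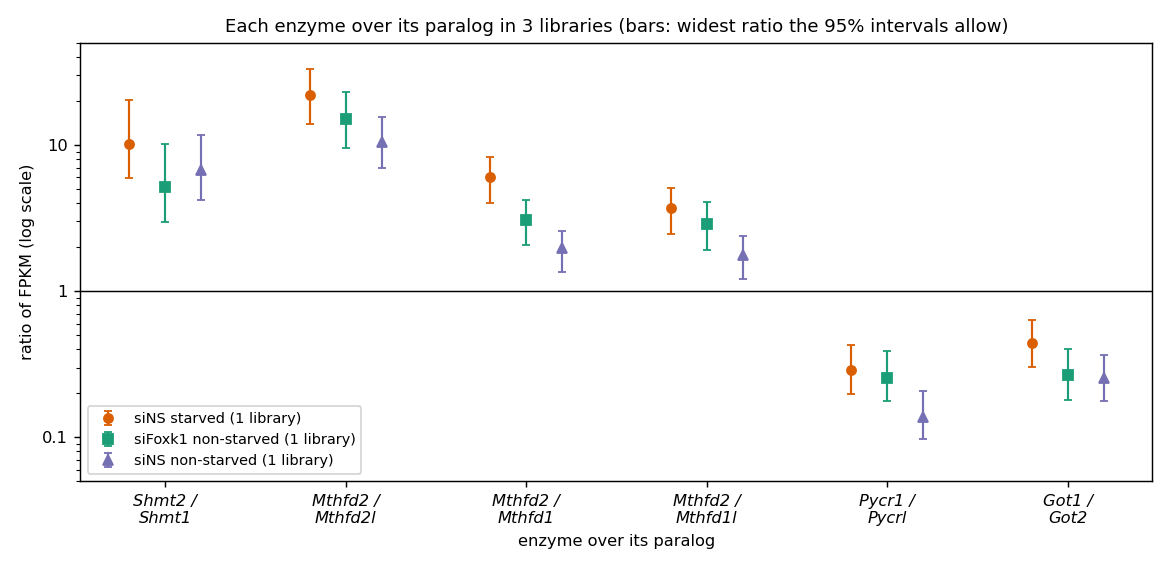
Ratio of FPKM of an enzyme to that of its paralog (log scale) in the siNS starved, siFoxk1 non-starved and siNS non-starved libraries; bars give the widest ratio the 95% intervals allow. Mthfd2 over Mthfd1 is 6.003 in the starved library and 1.96 in the control library, with bars that do not overlap.

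Other enzymes of amino acid metabolism were counted from 6 lists of 90 names, of which 84 were matched to single rows and 59 reached 1 FPKM in each comparison, though not the same 59. After starvation 8 of 59 had higher and 9 had lower intervals apart (13.6% and 15.3%), near the shares over all rows, and their median log2 fold change was -0.10. After knockdown 5 had higher and 5 had lower intervals apart (8.47% each), near the 8.89% higher and 7.13% lower over all rows. Their median was -0.18, against 0.02 over all rows. The counts for the 10 synthesis enzymes stood at 70% higher and 0% lower after starvation, and 10% higher and 30% lower after knockdown. All 5 of the other genes lower apart after knockdown were in the folate list. Its share was 29.4% (5 of 17), close to that of the 10 synthesis enzymes. The difference from the other enzymes was not tested.

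The enzymes of aspartate, glutamate and alanine had 3 of 9 members higher apart in the starved library and none apart in the knockdown library. For this and the following lists, the shares over all rows were 12.2% higher and 10.9% lower apart after starvation. After knockdown they were 8.89% higher and 7.13% lower apart. Gpt2, the mitochondrial alanine aminotransferase, had 103 FPKM (85.5 to 121) in the starved library, 23.8 FPKM (20.1 to 27.5) in the knockdown library and 22.4 FPKM (19.3 to 25.5) in the control library. Its starved ratio of 4.62 (3.35 to 6.31) was above the ratios of all 10 synthesis enzymes, but its limits overlap those of Cth (1.63 to 4.71). Glul, which makes glutamine, had 88.5 FPKM (69.4 to 103) in the starved library, 30.3 FPKM (23.8 to 35.6) in the knockdown library and 35.4 FPKM (28.3 to 40.7) in the control library, 2.50 times the control after starvation.

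In the folate list of 17 expressed genes, starvation came with 2 higher and 4 lower intervals apart, and knockdown with 1 higher and 5 lower. Aldh1l2, the mitochondrial formyltetrahydrofolate dehydrogenase, had 33.5 FPKM (28.0 to 38.9) in the starved library, 7.59 FPKM (6.31 to 8.85) in the knockdown library and 13.4 FPKM (11.3 to 15.5) in the control library, higher apart in the first comparison and lower apart in the second. Besides Mthfd1, the starved library was lower apart for Mthfsd, with a log2 fold change of -0.90, and Fpgs at -0.77, among others. Besides Aldh1l2, Mthfd1 and Mthfd1l, the knockdown library was lower apart for Tyms (-0.65), the thymidylate synthase that dividing cells need for DNA, among others.

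Of 13 expressed genes of cysteine and methionine metabolism, starvation came with 1 higher and 2 lower intervals apart. Mat2a, which makes S-adenosylmethionine, had 18.98 FPKM (12.3 to 21.3) in the starved library, 102 FPKM (72.2 to 122) in the knockdown library and 89.8 FPKM (69.6 to 103) in the control library, a starved ratio of 0.212 (0.119 to 0.307). Its regulatory subunit gene Mat2b was instead higher apart in both comparisons, at 1.68 times (1.15 to 2.45) and 1.57 times (1.12 to 2.19) the control. The salvage enzyme gene Mtap was lower apart in the starved library, at 0.670 times the control (0.451 to 0.960). In the knockdown library Mat2b and Cbs were the 2 higher apart of 14. Cbs reached 1 FPKM in that library alone, so its level there had to be above the control. That did not by itself set its intervals apart.

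In the list of proline, ornithine and arginine, 2 of 8 expressed genes were lower apart after starvation, among them the polyamine enzyme gene Odc1, and none was higher apart. Odc1 had 61.8 FPKM (47.7 to 71.0) in the starved library, 80.4 FPKM (62.9 to 93.7) in the knockdown library and 103 FPKM (81.9 to 117) in the control library. In the knockdown library 1 of 8 was higher apart. This was Ass1, the argininosuccinate synthase, with 28.5 FPKM (23.7 to 33.2) in the starved library, 62.2 FPKM (50.5 to 73.3) in the knockdown library and 29.6 FPKM (24.4 to 34.8) in the control library. Of the branched-chain genes, Bckdha, a subunit of the oxidising dehydrogenase, was higher apart in both comparisons, at 2.21 and 2.07 times the control, and Bckdk, the kinase that inhibits that dehydrogenase, was lower apart after starvation at 0.593 times. In the serine and glycine list, Amt was higher apart after starvation, but it reached 1 FPKM in the starved library alone, and none of the list was apart in the knockdown library.

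**Figure D4:**
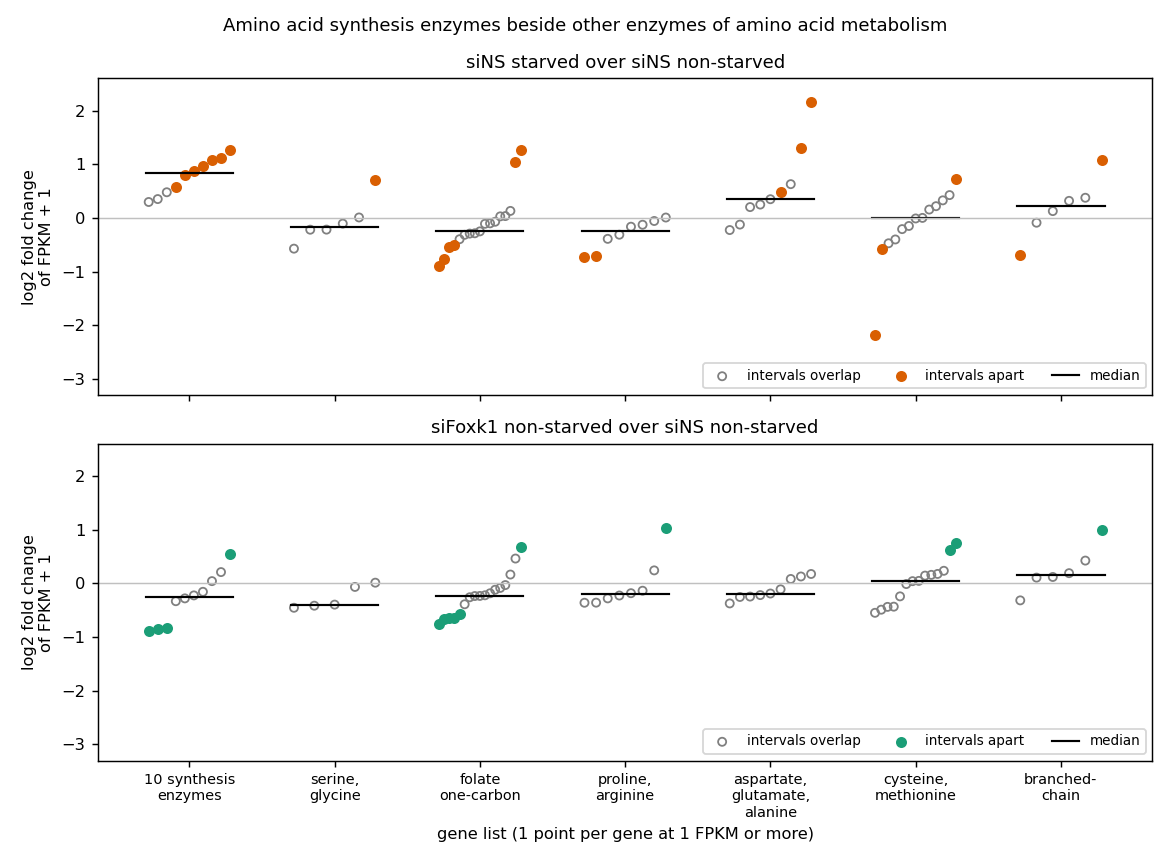
Log2 fold change of FPKM + 1 for the 10 synthesis enzymes and 6 lists of other enzymes, in the siNS starved (top) and siFoxk1 non-starved (bottom) libraries over the siNS non-starved library; filled points have 95% intervals apart and lines are list medians. The synthesis enzymes lie above 0 in the starved comparison (median 0.84), while Phgdh, Psat1 and Shmt2 lie lowest of them in the knockdown comparison.

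Of 10 listed regulators of the amino acid stress response, 7 were higher apart after starvation and none was lower apart. Over all rows the shares were 12.2% and 10.9%. Eif2ak3, Eif2ak4 and Myc overlapped the control. Atf4 had 318 FPKM (249 to 373) in the starved library, 247 FPKM (192 to 286) in the knockdown library and 200.3 FPKM (159 to 228) in the control library, apart after starvation and overlapping after knockdown; it is named for its role and was chosen after its values were seen. In the knockdown library 1 of the 10 regulators, Nupr1, was higher apart, at 1.70 times the control (1.08 to 2.56), and none was lower apart. This count is near the share over all rows, of which 8.89% were higher apart and 7.13% lower apart. The starved level of Nupr1, a stress-induced chromatin protein gene, was 5.09 times the control (3.45 to 8.05). The part of any regulator in the levels of the enzymes was not tested.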

How the data were processed

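Per the file headers, the authors deposited 1 RNA table per library with a mean FPKM and the limits of a 95% interval for each gene symbol. Build mm9 and the tools Cuffdiff, Cufflinks 2.1.1, TopHat2 2.0.9 and Bowtie2 2.1.0 are named, per the submitters' processing notes, without their roles. For the annotation, the interval method and any pooling, nothing is stated in the labels or headers. Groups were taken from the sample titles.

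The 10 enzymes and the gene lists were chosen with earlier results of these data known. Values were used as deposited. The row of Zzz3, whose lower limit exceeds its upper one in the knockdown table, was left out, leaving 22988 rows. Log2 fold changes were computed on log2(FPKM + 1), which understates changes of low genes, and ratios from plain FPKM. A comparison used the rows that reached 1 FPKM in either of its libraries. List genes with intervals apart (at most 4 per list and comparison, by size of change), paralogs of the enzymes and the row nearest to each enzyme were named. List names matched rows by symbol; 5 names were not analysed here, and some genes that these rules name are not reported here. FPKM holds no counts, so absolute depth is unknown. Ratios of values under 0.1 FPKM piled up in 1 bin for the starved library (51 of 2135 rows, against a median of 14 in the bins around it). If this bin held rows with 1 read in each library, which was assumed and not shown, the starved library had 0.834 of the control's depth. The bins 1 log2 unit above and below it held 30 and 12 rows. For the knockdown library the peak was weak (30 of 2129 rows, against 15). Promoter windows came from RefSeq (GRCm38.p6) by symbol; the ChIP regions, on mm9, were not used with them. The rule for intervals apart was run on simulated libraries whose noise came from the control's deposited intervals, without replicate spread. The planted changes were larger than those of the 10 enzymes, so this checked the computation and not the calls made here. Computations ran in Python 3.11.15 with pandas 2.3.3 and numpy 2.4.6, and figures in matplotlib 3.10.9.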

Additional observations from a re-analysis of the deposited data

How the results depend on the processing

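Requiring a 2-fold difference on the log2(FPKM + 1) scale besides intervals apart left 3 of the 10 enzymes higher in the starved library (Asns, Mthfd2 and Cth), and in the knockdown library 0 higher and 0 lower. Under the same rule the other enzymes numbered 5 higher and 1 lower in the starved library, and 1 higher and 0 lower in the knockdown library. With half-widths multiplied by 1.5, Psph lost its call in the starved library and Pycr1 in the knockdown library, where 0 enzymes were then higher; Phgdh, Psat1 and Shmt2 stayed lower apart. The other enzymes then numbered 5 higher and 1 lower after starvation, and 3 higher and 1 lower after knockdown. The share of all rows apart under these wider intervals was not counted. Scaling each library to the same summed FPKM, which multiplies the starved values by 1.07 relative to the control, put Psat1 apart and higher in the starved library. Filters of none or 5 FPKM moved no count of these enzymes by over 1.5 times, and the other scalings (median ratio, upper quartile) changed no member's call. Under pseudocounts of 0.1 and 5 and the 3 scalings, all 100 log2 fold changes of single enzymes stayed within the limits their intervals allow. Relative to the control the scaling factors ran from 0.995 to 1.07, small beside these limits. The scalings could therefore hardly have failed this check. No paired analysis was possible because each group had 1 library. Precision is limited by the deposited intervals, whose method is not stated, and the single library per group leaves replicate spread unmeasured.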

Other observations

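For each enzyme, the row with the most similar pair of log2 fold changes was sought among 7919 rows of other genes at 5 FPKM or more in all 3 libraries. Likeness was the distance in the plane of the 2 log2 fold changes, so it rests on 3 libraries that share 1 control, and between 18 and 304 rows lay within 0.25 of an enzyme. Cth in the knockdown and control libraries and Pycr1 in the control library were themselves under 5 FPKM, where the log2(FPKM + 1) scale understates changes more. The nearest row to Cth, the enzyme with the fewest rows within 0.25, was Pde3b, a phosphodiesterase gene, at a distance of 0.0672. Glul (0.0689) and Atf5 (0.0710), both on the gene lists used here, were almost as near to Cth. Other enzymes also had close second rows from outside the lists, such as Sgol1 for Psat1 (0.0223, against 0.0180 for Ttll7). Pde3b had log2 fold changes of 1.21 for starvation and -0.30 for knockdown. In the same order, the nearest row to Asns, Snhg6, a snoRNA host gene, had 1.13 and -0.31, and to Mthfd2 it was Mxi1, which encodes a Max partner, with 1.09 and 0.05. Nearest to Got1 was Atp6ap2, an accessory protein gene of the lysosomal proton pump, to Psph the lysosomal transporter gene Spns1, to Aldh18a1 the ubiquitin ligase gene Siah1a, and to Pycr1 the junction protein gene F11r. Among the enzymes lower in the knockdown library, Shmt2 lay nearest to the mitotic kinesin gene Kif18b, with 0.36 and -0.82, Phgdh to Steap1, with 0.29 and -0.87, and Psat1 to Ttll7, with 0.47 and -0.87.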
